A study of Mus musculus with 17 samples.

Results

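The genes examined here encode 8 proteins of the synaptic vesicle and of its fusion with the presynaptic membrane: Snap25, Stx1a, Vamp1, Vamp2, Syp, Syn1, Syn2 and Sv2a. Their members were chosen by name as all probe sets whose only gene symbol in the array annotation is one of these, which gave 8 of 18193 genes and 18 of 45037 probe sets. Snap25, Stx1a, Vamp1, Vamp2 and Syp have 2 probe sets each, Syn2 has 6, and Syn1 and Sv2a have 1 each. A further probe set, shared by Vamp1 and another symbol, was left out. All 17 arrays carry the same RNA, mRNA isolated from adult female mouse cortex of the strain C57BL/6. A sample of 5 µg without aRNA amplification was hybridized to a single array, the bulk array. Dilutions to 10, 1 and 0.1 pg were amplified by repeated in vitro transcription: 10 pg for 2 rounds on 1 array, and the other combinations (1 and 0.1 pg for 2 rounds, all 3 inputs for 4 rounds) on 3 arrays each. Replicates were amplified separately from that RNA, so a p-value measures the spread between amplifications and says nothing of animals. The methods do not say whether the labelling round is counted in the rounds.

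Release of neurotransmitter requires the membrane of a synaptic vesicle to merge with the plasma membrane of the nerve terminal. The SNARE proteins drive this step: a vesicle SNARE (Vamp1 or Vamp2, the synaptobrevins) zips together with syntaxin (Stx1a) and Snap25 of the plasma membrane into a tight helical bundle. Other proteins mark or manage the vesicle. Synaptophysin (Syp) and Sv2a span its membrane, and the synapsins (Syn1 and Syn2) coat it and hold vesicles in a reserve pool. Most of these mRNAs are abundant in neurons of the cortex, and they serve as common markers of the neuronal presynapse.

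A level here is a log2 value relative to the median of its array, which is 0, after the range between the 10th and the 90th percentile had been made equal on all arrays. A probe set was called in a comparison at a Benjamini-Hochberg adjusted p under 0.05 from limma over all 45037 probe sets. Differences were taken within a probe set, since probes differ in brightness, and the number of arrays limits the precision. Levels of different probe sets were combined in picking the brightest probe set of a gene, in medians over marker genes and in the mean of the members. Many probe sets shared identical values on some arrays. Distinct values numbered 3771 in bulk, 872 on the 10 pg array after 2 rounds, 1258 to 2102 at 0.1 pg after 2 rounds and 1691 to 4345 on the other amplified arrays. Of the 18 member values in bulk, 3 were shared with at least 100 other probe sets. The count was 11 of 18 on the 10 pg array after 2 rounds (61.1%), 34 of 54 at 0.1 pg after 2 rounds (63%), and 12 to 19 of 54 in each of the other groups. Over all probe sets such values made up 52.4% in bulk, 91.8% on the 10 pg array after 2 rounds and 85.1% to 92% at 0.1 pg after 2 rounds. Marker genes were read beside the label of cortex. In bulk, 4 of 5 neuronal markers lay above the median of the array (Tubb3 did not), with 3 of 5 for astrocytes, 3 of 4 for oligodendrocytes, 4 of 5 for microglia, 3 of 5 for vessels and 1 of 2 for blood.

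**Figure D1:**
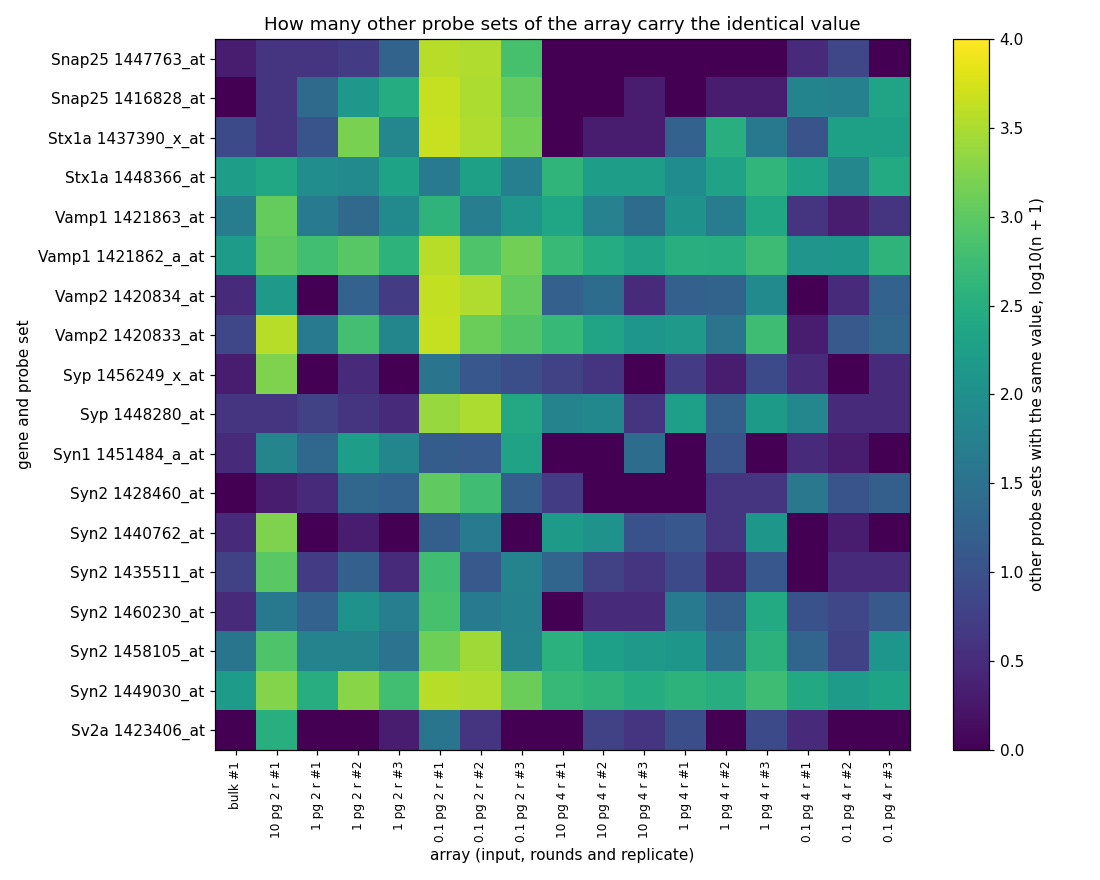
Number of other probe sets of the same array with the identical value, as log10(n + 1) on the colour scale, for the 18 member probe sets (rows) on the 17 arrays (columns, r for rounds). At least 100 other probe sets shared 34 of 54 member values on the 0.1 pg arrays after 2 rounds and 11 of 18 on the 10 pg array after 2 rounds. The row of Sv2a is dark on the former and not on the latter, with 336.

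Snap25, the plasma membrane SNARE that gives the bundle a pair of its helices, was lowest at 0.1 pg after either number of rounds. By probe set 1447763_at its level was 4.26 in bulk and 6.07 on the 10 pg array after 2 rounds. After 2 rounds it was 3.04, 3.57 and 2.55 at 1 pg, and it was -1.64, -1.05 and 0.27 at 0.1 pg. After 4 rounds it was 6.60, 6.86 and 6.45 at 10 pg, 6.33, 5.69 and 5.83 at 1 pg and 2.82, 2.10 and 4.03 at 0.1 pg. In descending order the groups were 10 pg after 4 rounds, 10 pg after 2 rounds, 1 pg after 4 rounds, bulk, 1 pg after 2 rounds, 0.1 pg after 4 rounds and 0.1 pg after 2 rounds. The arrays of 1 pg after 2 rounds overlapped those of 0.1 pg after 4 rounds, and the single 10 pg array after 2 rounds lay within the range of 1 pg after 4 rounds. Probe set 1416828_at gave 5.26 in bulk, 5.74 on the 10 pg array after 2 rounds, 2.02, 1.59 and 0.61 at 1 pg after 2 rounds, with -1.15, -0.47 and -1.94 at 0.1 pg after 2 rounds. After 4 rounds it gave 5.71, 5.97 and 5.31 at 10 pg, 5.99, 5.43 and 5.97 at 1 pg and 0.90, 0.54 and 0.41 at 0.1 pg. Here the inputs of 10 and 1 pg after 4 rounds overlapped and 0.1 pg lay below both. The 0.1 pg values after 2 rounds are among the shared ones: those of 1447763_at were identical to 3695, 3316 and 688 other probe sets of the array, and those of 1416828_at to 4494, 3177 and 1104.

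Stx1a, the syntaxin of the presynaptic membrane, gave unlike patterns at its 2 probe sets. Probe set 1437390_x_at, whose suffix marks probes that may also bind related sequences, was at 2.43 in bulk and 5.75 on the 10 pg array after 2 rounds. It gave 2.58, -0.42 and 1.55 at 1 pg and -0.72, -0.74 and -0.91 at 0.1 pg after 2 rounds. The levels after 4 rounds were 4.76, 4.66 and 4.07 at 10 pg, 2.07, -0.75 and 2.34 at 1 pg and 1.85, -1.54 and 0.47 at 0.1 pg. All 10 pg arrays lay above all others, and the 1 and 0.1 pg arrays after 4 rounds overlapped. Probe set 1448366_at was instead highest at 0.1 pg after 2 rounds, with 4.17, 2.29 and 2.66. It was at -0.44 in bulk, 2.59 on the 10 pg array after 2 rounds, 1.16, 1.96 and 0.99 at 1 pg after 2 rounds, with between -0.47 and 1.09 on the 9 arrays after 4 rounds, whose groups overlapped. Across the 17 arrays the levels of these probe sets had a Pearson's r of -0.34.

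Vamp2, the main vesicle SNARE of the forebrain, was lowest at 0.1 pg after 2 rounds by probe set 1420834_at. That probe set was at 4.15 in bulk and 3.11 on the 10 pg array after 2 rounds. It gave 4.53, 2.83 and 3.86 at 1 pg and -0.35, -1.05 and -0.39 at 0.1 pg after 2 rounds. After 4 rounds it was at 2.45, 2.09 and 3.48 at 10 pg, 2.56, 1.70 and 1.66 at 1 pg and 3.58, 2.68 and 2.16 at 0.1 pg. The 3 inputs after 4 rounds overlapped one another, and the 0.1 pg arrays after 2 rounds were the only ones of the 17 below the median of their array. These 3 values were identical to 4217, 3316 and 1103 other probe sets. Probe set 1420833_at was at 2.75 in bulk, -1.38 on the 10 pg array after 2 rounds, 1.5, 0.45 and 1.63 at 1 pg after 2 rounds, with -1.15, -2.67 and 0.00 at 0.1 pg after 2 rounds. Its levels after 4 rounds were -0.78, 0.04 and 0.49 at 10 pg, 0.75, 1.35 and -0.56 at 1 pg and 2.44, 1.74 and 2.10 at 0.1 pg. It lay below bulk on all 16 amplified arrays, and after 4 rounds 0.1 pg lay above both larger inputs.

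Vamp1, the other synaptobrevin, which is better known from spinal cord and brainstem, had its highest group means at 0.1 pg by probe set 1421863_at. That probe set was at 0.90 in bulk and 1.10 on the 10 pg array after 2 rounds. It gave 1.58, 2.71 and 1.65 at 1 pg and 2.26, 3.20 and 1.89 at 0.1 pg after 2 rounds. After 4 rounds the levels were 0.50, 1.34 and 1.66 at 10 pg, 0.88, 1.01 and 0.67 at 1 pg and 2.33, 3.14 and 2.88 at 0.1 pg. The 0.1 pg arrays after 4 rounds lay above those of the larger inputs, while 1 and 0.1 pg after 2 rounds overlapped. Probe set 1421862_a_at stayed within -2.80 and 1.24 on the 17 arrays, and its group means within the 5 groups of 3 ran from -0.58 to -0.15.

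Syp, a membrane protein of nearly all synaptic vesicles, had a steady and an unsteady probe set. Probe set 1456249_x_at was at 4.11 in bulk and between 3.41 and 4.91 on the 15 arrays of the replicated groups. Its group means ran from 3.77 ± 0.39 at 1 pg after 4 rounds to 4.80 ± 0.064 at 1 pg after 2 rounds (SD, n = 3). The exception was the 10 pg array after 2 rounds, at 0.72, a value that 1710 other probe sets of that array shared. Probe set 1448280_at was at 2.82 in bulk, 5.58 on the 10 pg array after 2 rounds, 3.19, 4.03 and 3.84 at 1 pg after 2 rounds, with 0.57, -0.47 and 1.34 at 0.1 pg after 2 rounds. After 4 rounds it was at 1.69, 1.09 and 2.93 at 10 pg, 0.52, 1.97 and 1.16 at 1 pg and 0.67, 3.59 and 4.08 at 0.1 pg, so that the 3 inputs overlapped. Replicate 1 of 0.1 pg after 4 rounds lay apart from the other two.

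Sv2a, the vesicle glycoprotein to which the antiepileptic drug levetiracetam binds, varied little. Its probe set 1423406_at was at 4.49 in bulk and 2.23 on the 10 pg array after 2 rounds, a value shared with 336 other probe sets. It gave 5.18, 5.35 and 5.04 at 1 pg and 4.47, 5.18 and 5.04 at 0.1 pg after 2 rounds. After 4 rounds it gave 4.77, 4.61 and 4.70 at 10 pg, 3.75, 4.30 and 3.88 at 1 pg and 4.87, 4.55 and 5.01 at 0.1 pg. The 15 arrays of the replicated groups thus spanned 3.75 to 5.35, and the arrays of 1 pg after 4 rounds lay below all the other 12. At 0.1 pg after 2 rounds its values were identical to 35, 3 and 0 other probe sets.

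Syn1, a synapsin whose loss causes epilepsy, spread more widely between replicate amplifications than between groups. Its probe set 1451484_a_at was at 4.32 in bulk and 3.77 on the 10 pg array after 2 rounds. It was at 2.28, 1.51 and 1.68 at 1 pg and at 4.84, 3.91 and 1.52 at 0.1 pg after 2 rounds. After 4 rounds the replicates were 5.50, 5.19 and 1.5 at 10 pg, 6.99, 2.37 and 7.35 at 1 pg and 2.24, 2.20 and 7.29 at 0.1 pg. In each of these 3 groups 1 replicate lay far from the other pair, and all groups of 3 but 1 pg after 2 rounds had an SD between 1.71 and 2.93. Among the groups of 3, all overlapped but 1 pg after 2 rounds, at most 2.28, and 1 pg after 4 rounds, at least 2.37, a gap smaller than the spread of either. Bulk and the 10 pg array after 2 rounds lay above all arrays of 1 pg after 2 rounds.

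Syn2, the second synapsin of the adult cortex, had probe sets with opposite patterns. Probe set 1428460_at was at 5.35 in bulk and 5.84 on the 10 pg array after 2 rounds, 2.78, 2.91 and 2.45 at 1 pg after 2 rounds, with 1.46, 1.47 and 3.51 at 0.1 pg after 2 rounds. After 4 rounds it was at 5.17, 5.50 and 4.75 at 10 pg, 4.83, 3.36 and 4.52 at 1 pg and 1.20, 1.88 and 2.17 at 0.1 pg. Probe set 1440762_at was at 3.20 in bulk, 0.72 on the 10 pg array after 2 rounds, 4.50, 4.28 and 4.71 at 1 pg after 2 rounds, with 4.72, 3.58 and 5.75 at 0.1 pg after 2 rounds. It then gave 0.77, 0.79 and 2.52 at 10 pg, 2.74, 2.69 and 1.37 at 1 pg and 5.89, 5.51 and 4.56 at 0.1 pg after 4 rounds. Over the 17 arrays the r of the levels of these probe sets was -0.82. Probe set 1460230_at was at 3.34 in bulk and 4.46 on the 10 pg array after 2 rounds, and after 4 rounds at 4.50, 4.35 and 4.39 at 10 pg, 1.63, 1.65 and 0.49 at 1 pg and 1.82, 2.20 and 2.25 at 0.1 pg. All 4 of its 10 pg arrays lay above the other amplified arrays. The remaining probe sets 1435511_at, 1458105_at and 1449030_at spanned 1.26 to 3.97, -0.22 to 2.40 and -2.61 to -0.52 on the 17 arrays, and the last of these was below the median of the array on each.

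**Figure D2:**
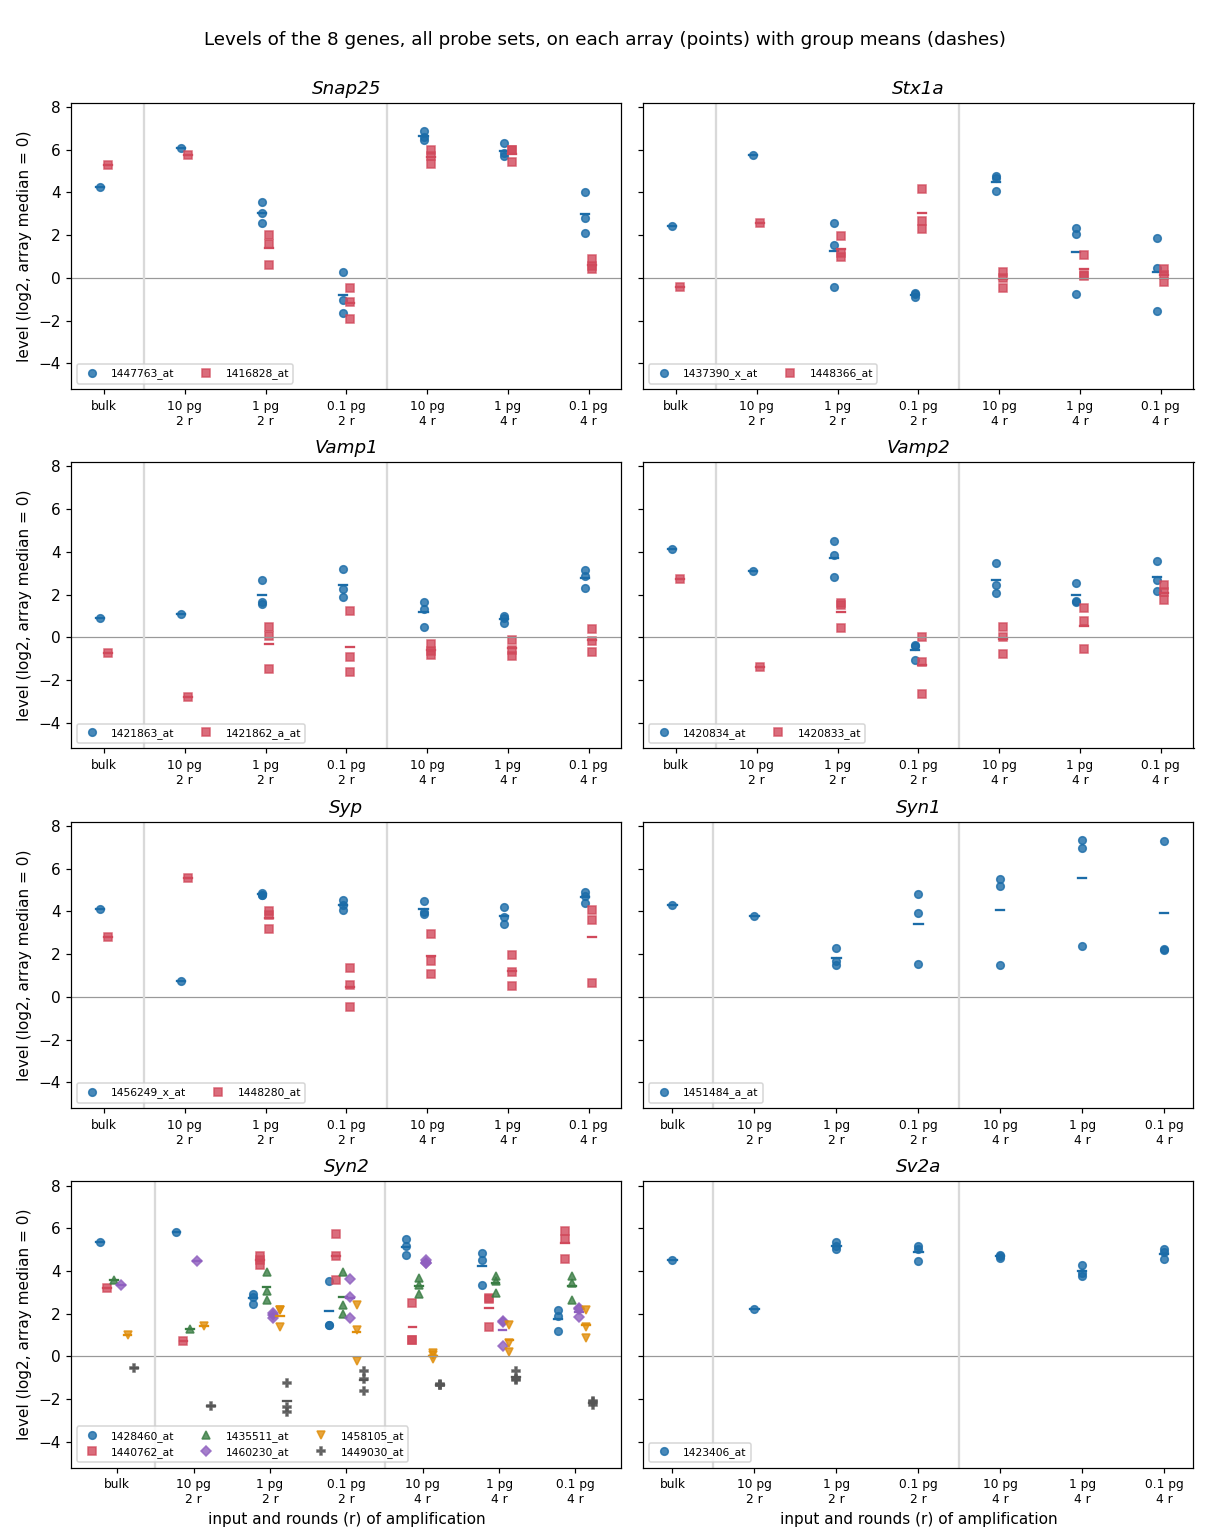
Level (log2, the median of the array at 0, vertical axes) of every probe set of the 8 genes on each of the 17 arrays (points) by input and rounds, r for rounds (horizontal axes). Dashes are group means and symbols are probe sets. Both Snap25 probe sets were lowest at 0.1 pg after 2 and after 4 rounds, Sv2a stayed between 3.75 and 5.35 on the replicated groups, and the replicates of Syn1 lay far apart.

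Input was compared first at the 4 rounds, where 0.1 pg met 10 pg. Snap25 was lower at 0.1 pg by both probe sets and Stx1a by 1 of 2. The vesicle SNAREs Vamp1 and Vamp2 were higher by 1 of 2 probe sets each, Syn2 moved both ways, and Syp, Syn1 and Sv2a had no called probe set. Of the 18 probe sets 5 were called lower and 3 higher, against 4.83% and 4.04% of all probe sets. The median difference of the 18 was 0.13, beside 0.10 over all probe sets.

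Snap25 at 1416828_at was at 0.62 ± 0.25 at 0.1 pg and 5.66 ± 0.33 at 10 pg (SD, n = 3), a difference of -5.04 (standard error 0.47, adjusted p = 4.48e-05 from limma). By 1447763_at it was at 2.98 ± 0.97 and 6.63 ± 0.21 (SD, n = 3), a difference of -3.65 (standard error 0.55, adjusted p = 0.000850 from limma). Stx1a at 1437390_x_at was at 0.26 ± 1.71 and 4.50 ± 0.37 (SD, n = 3), which differed by -4.24 (standard error 0.89, adjusted p = 0.00785 from limma). The 0.1 pg arrays of these probe sets lay below all 10 pg arrays. At the other Stx1a probe set, 1448366_at, the groups overlapped and differed by 0.18 (standard error 0.51, adjusted p = 0.865 from limma). Without replicate 2 of 0.1 pg, the lowest for Stx1a, its adjusted p was 0.0503, and the count of called members was 5 in place of 8.

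Each vesicle SNARE had 1 probe set that was higher at 0.1 pg and 1 that was not called. Vamp1 at 1421863_at was at 2.78 ± 0.41 at 0.1 pg and 1.16 ± 0.60 at 10 pg (SD, n = 3), a difference of 1.62 (standard error 0.48, adjusted p = 0.0448 from limma). Vamp2 at 1420833_at was at 2.09 ± 0.35 and -0.08 ± 0.64 (SD, n = 3), a difference of 2.17 (standard error 0.64, adjusted p = 0.0451 from limma). Neither pair of groups overlapped. Both calls were lost when any array of these groups but replicate 3 of 10 pg was left out, with adjusted p up to 0.202 for Vamp1 and 0.187 for Vamp2. The other Vamp1 probe set, 1421862_a_at, differed by 0.44 (standard error 0.65, adjusted p = 0.717 from limma), and its groups overlapped. The other Vamp2 probe set, 1420834_at, differed by 0.13 (standard error 0.54, adjusted p = 0.910 from limma), and its groups overlapped.

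Among the synapsins, Syn2 was lower at 0.1 pg by 1428460_at, at 1.75 ± 0.50 against 5.14 ± 0.37 (SD, n = 3), a difference of -3.39 (standard error 0.56, adjusted p = 0.00162 from limma). It was also lower by 1460230_at, with a difference of -2.32 (standard error 0.47, adjusted p = 0.00634 from limma). By 1440762_at it was higher, at 5.32 ± 0.69 against 1.36 ± 1.00 (SD, n = 3), a difference of 3.96 (standard error 0.62, adjusted p = 0.00111 from limma). So the direction for this gene depended on the probe set. Syn1 differed by -0.15 with a standard error of 1.44. Of the vesicle membrane proteins, Sv2a differed by 0.12 (standard error 0.37, adjusted p = 0.875 from limma) and Syp by 0.56 at 1456249_x_at (standard error 0.38, adjusted p = 0.382 from limma).

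Other measures moved with this comparison. The median level of 5 neuronal markers was 5.64 at 10 pg and 1.04 at 0.1 pg, with 4 of 5 above the median of the array in both groups, and Eno2 and Nefl were called lower, with differences of -5.38 and -5.05. Map2, Tubb3 and Rbfox3 differed by -0.25, -0.26 and -0.81 and were not called. The medians of the astrocyte markers were 0.49 and 1.21, of oligodendrocyte markers 0.43 and 1.52, of microglial markers 0.37 and 0.47, of vascular markers 0.21 and -0.045, and of blood markers -0.11 and 1.03. Of these other markers, Mbp of myelin was called higher, at 2.99 (adjusted p = 0.0260 from limma), and Kdr of vessels lower, at -2.97 (adjusted p = 0.0102 from limma). The 3′ end of b-actin minus its 5′ end, by the control probe sets, was 1.17 ± 0.57 at 10 pg and -0.82 ± 0.13 at 0.1 pg, on the log2 scale, and the same for Gapdh was 4.88 ± 0.17 and 3.78 ± 0.11 (SD, n = 3). Their part in the differences of the members was not tested.

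**Figure D3:**
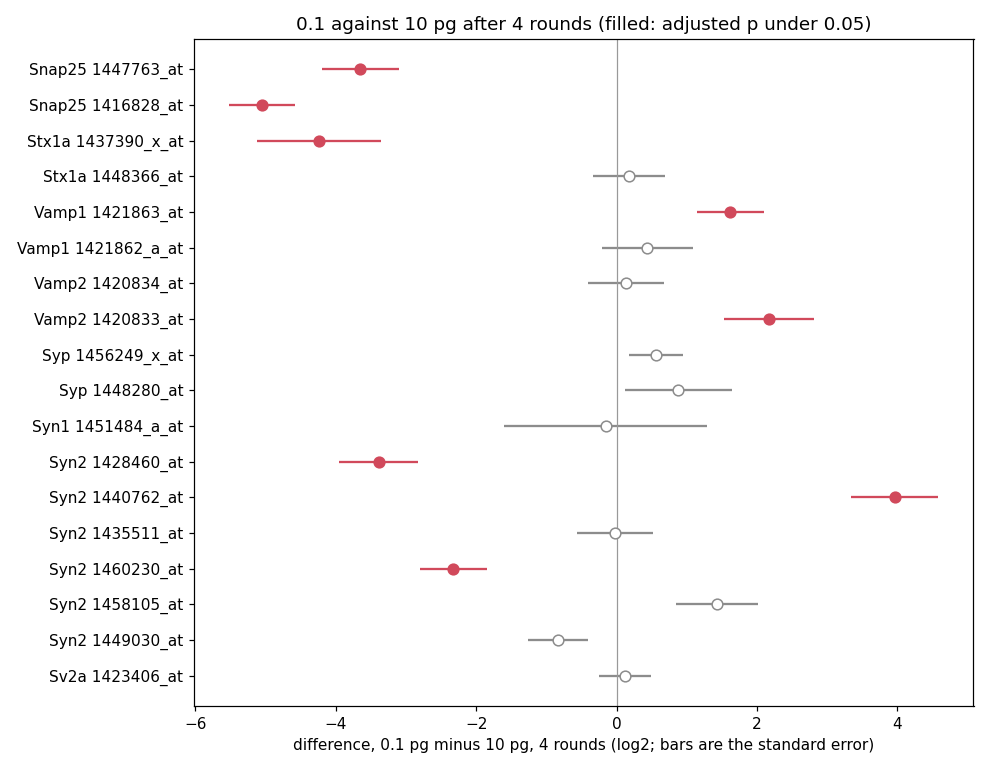
Difference in level between 0.1 and 10 pg after 4 rounds (log2, horizontal axis; bars are the standard error, n = 3 per group) for the 18 probe sets. Filled red points passed the adjusted p of 0.05: 5 lie to the left of 0, with Snap25 1416828_at farthest at -5.04, and 3 to the right.

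From 10 to 1 pg after 4 rounds little was called. Of the 18 probe sets, 1 was called lower and 0 higher, against 0.588% and 0.0688% of all probe sets. It was Syn2 at 1460230_at, at 1.26 ± 0.66 at 1 pg and 4.41 ± 0.075 at 10 pg (SD, n = 3), with a difference of -3.16 (standard error 0.47, adjusted p = 0.00606 from limma). The groups did not overlap. The call was lost with the compared groups alone (adjusted p = 0.0541 from limma). Stx1a at 1437390_x_at had a difference of -3.28, but its replicates at 1 pg spread from -0.75 to 2.34, and it did not pass (standard error 0.89, adjusted p = 0.131 from limma). Snap25 differed by 0.13 at 1416828_at and by -0.69 at 1447763_at, with standard errors of 0.47 and 0.55.

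Between 1 and 0.1 pg, averaged over 2 and 4 rounds, 3 probe sets were called lower and 0 higher, beside 0.986% and 0.255% of all probe sets. Both Snap25 probe sets were among them. The difference was -3.89 at 1416828_at (standard error 0.33, adjusted p = 3.43e-05 from limma) and -3.41 at 1447763_at (standard error 0.39, adjusted p = 0.000386 from limma). By rounds, 1447763_at differed by -3.86 after 2 and -2.97 after 4 rounds, and 1416828_at by -2.60 and -5.18, and in each case the 0.1 pg arrays lay below all 1 pg arrays. Vamp2 at 1420834_at was the third, with an averaged difference of -1.75 (standard error 0.38, adjusted p = 0.0333 from limma), but its difference was -4.33 after 2 rounds and 0.83 after 4 rounds, where the groups overlapped. Its call was lost when any of 6 of the 12 arrays was left out, with adjusted p up to 0.0987: replicates 1 and 3 of 1 pg and 2 of 0.1 pg after 2 rounds, and replicates 1 of 1 pg and 2 and 3 of 0.1 pg after 4 rounds. Syn2 at 1428460_at differed by -0.57 after 2 and -2.49 after 4 rounds, but at 1440762_at by 0.19 and 3.05. Vamp1 at 1421863_at differed by 0.47 and 1.93. None of these probe sets passed over both rounds. Sv2a differed by -0.29 after 2 and 0.83 after 4 rounds.

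The number of rounds was compared at 1 and 0.1 pg, the inputs amplified for both. Averaged over these inputs, Snap25 was higher and Stx1a, at 1448366_at, lower after 4 rounds. Of the 18 probe sets, 1 was called lower and 2 higher, beside 1.91% and 1.99% of all. Snap25 was higher by 3.34 at 1447763_at (standard error 0.39, adjusted p = 0.000775 from limma) and by 3.10 at 1416828_at (standard error 0.33, adjusted p = 0.000461 from limma). For both probe sets every array after 4 rounds lay above every array of the same input after 2 rounds. Stx1a at 1448366_at had a difference of -1.93 (standard error 0.36, adjusted p = 0.0109 from limma), made up of -0.94 at 1 pg and -2.92 at 0.1 pg. Its other probe set differed by -0.02 at 1 pg and 1.05 at 0.1 pg, within the spread of the replicates.

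The effect of the rounds was then set against the input. The differences between 4 and 2 rounds at 0.1 pg minus those at 1 pg were called lower for 1 and higher for 3 of the 18 probe sets, beside 1.14% and 2.46% of all probe sets. Vamp2 was called by both of its probe sets. At 1420834_at the rounds made a difference of -1.77 at 1 pg and 3.40 at 0.1 pg, and the 2 differed by 5.16 (standard error 0.76, adjusted p = 0.00479 from limma), a call kept when any of the 12 arrays was left out. At 1420833_at the differences were -0.68 and 3.37, which lay 4.05 apart (standard error 0.91, adjusted p = 0.0248 from limma). Syp at 1448280_at gave -2.47 at 1 pg and 2.30 at 0.1 pg, which differed by 4.78 (standard error 1.08, adjusted p = 0.0260 from limma). For Snap25 at 1416828_at both were positive, at 4.39 and 1.81, with -2.58 between them (standard error 0.67, adjusted p = 0.0430 from limma). The other Snap25 probe set, 1447763_at, went the other way, at 2.90 and 3.79. Its 0.89 was not called (standard error 0.78, adjusted p = 0.542 from limma). The 0.1 pg levels of these probe sets after 2 rounds were shared with up to 4494 other probe sets. They were identical to 4494, 1243 and 834 others for Vamp2 at 1420833_at and to 2435, 3177 and 261 for Syp at 1448280_at. The numbers for Snap25 and for Vamp2 at 1420834_at are given above. The part of this in the differences was not tested.

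The other 3 of these calls were lost when single arrays were left out. The count was 4 on all arrays and 1 without replicate 1 or 3 of 1 pg after 2 rounds, replicate 1 or 3 of 1 pg after 4 rounds, or replicate 2 of 0.1 pg after 4 rounds, and 2 without replicate 1 or 3 of 0.1 pg after 4 rounds. The call of Snap25 at 1416828_at was kept only without replicate 3 of 0.1 pg after 2 rounds or replicate 2 of 1 pg after 4 rounds, and was lost in the other 10 cases (adjusted p up to 0.107). That of Syp was lost without any array of 1 pg after 2 rounds, replicates 1 and 3 of 1 pg after 4 rounds, or replicates 2 and 3 of 0.1 pg after 4 rounds (up to 0.0740). Vamp2 at 1420833_at lost its call without replicates 1 and 3 of 1 pg after either number of rounds, or replicates 1 and 2 of 0.1 pg after 4 rounds (up to 0.0771).

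**Figure D4:**
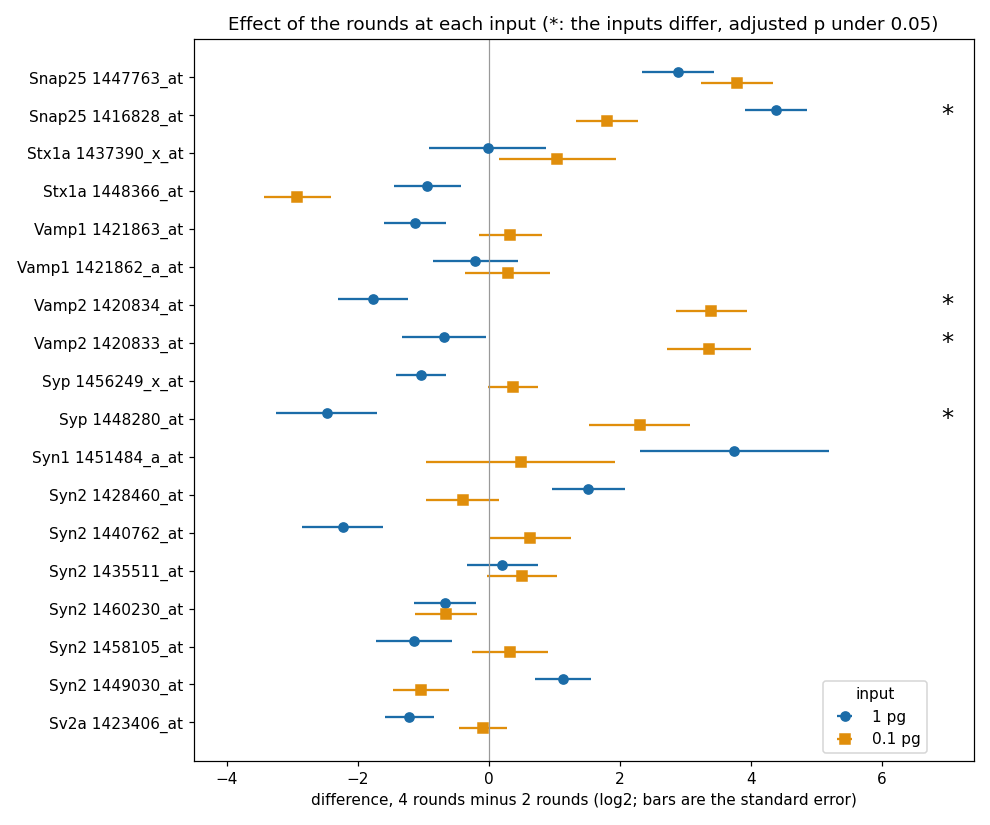
Difference in level between 4 and 2 rounds (log2, horizontal axis; bars are the standard error, n = 3 per group) at 1 pg (circles) and 0.1 pg (squares) for the 18 probe sets. Stars mark the 4 probe sets whose differences were called unequal between the inputs. Both Vamp2 probe sets lie left of 0 at 1 pg and right of 0 at 0.1 pg, and both Snap25 probe sets lie to the right at either input.

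Against the unamplified bulk mRNA, 0 of the 18 probe sets were called for the mean of the 6 amplified groups, beside 1.03% of all probe sets called lower and 0.0711% called higher. At an unadjusted p under 0.05 limma gave 5 of the 18, but the share over all probe sets at that threshold was not counted, so no excess can be read from it. Bulk is a single array, so an effect of amplification and a deviation of that array cannot be told apart, and its spread is taken from the other groups. Differences were negative for 15 of the 18, with a median of -0.39 beside 0.10 over all probe sets. The share of negative differences over all probe sets was not counted. The 18 share the same bulk array and 6 of them are of Syn2, so no excess can be read from the 15. The 462 lower and 32 higher calls over all probe sets became 554 and 158 with the deposited values, whose median difference was 0.21 higher. Snap25 at 1416828_at was at 5.26 in bulk and 2.67 ± 2.95 (SD, n = 16) over the amplified arrays, with a difference of -2.25 of the equally weighted groups (standard error 0.60, adjusted p = 0.0875 from limma). Without the 10 pg array after 2 rounds, an alternative chosen after seeing the data, it passed at -2.80 (adjusted p = 0.0261 from limma). Vamp2 at 1420833_at differed by -2.57 and at 1420834_at by -1.87, and neither passed (adjusted p = 0.159 and 0.229 from limma). By group, Snap25 at 1416828_at lay within 0.54 of bulk at 10 pg after either number of rounds and at 1 pg after 4 rounds, but at -3.85 from bulk at 1 pg after 2 rounds, -4.64 at 0.1 pg after 4 rounds and -6.45 at 0.1 pg after 2 rounds, where its shared values below the median leave the size uncertain. Probe set 1447763_at of Snap25 lay 1.82, 2.38 and 1.69 above bulk at 10 pg after 2 rounds, 10 pg after 4 rounds and 1 pg after 4 rounds. It lay at -1.20 from bulk at 1 pg after 2 rounds and -1.28 at 0.1 pg after 4 rounds. At 0.1 pg after 2 rounds, where its values were shared too, it lay at -5.06. Its overall difference was -0.28 (adjusted p = 0.913 from limma). Sv2a lay between -0.52 and 0.69 of bulk in all replicated groups.

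**Figure D5:**
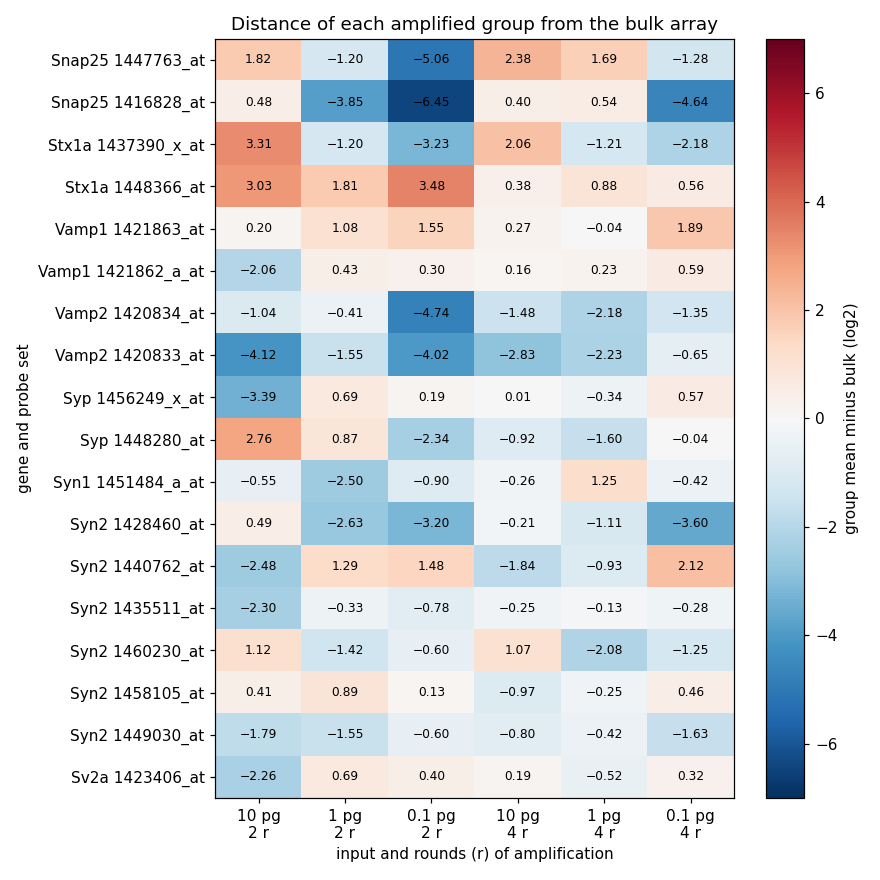
Group mean minus the bulk array (log2, colour and printed values) for the 18 probe sets (rows) in the 6 amplified groups (columns, r for rounds). The rows of Snap25 are bluest at 0.1 pg, down to -6.45 at 0.1 pg after 2 rounds, whereas Sv2a and Syp 1456249_x_at stay within 0.69 of bulk in all groups but the single 10 pg array after 2 rounds.

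The 8 genes did not vary together. Each was taken by the probe set that was brightest on average and correlated over these arrays with the mean of the other 7. Pearson's r was 0.74 for Snap25, 0.645 for Stx1a, 0.594 for Syn2 and 0.418 for Vamp2, 0.146 for Syn1, and -0.349 for Syp, -0.393 for Sv2a and -0.70 for Vamp1. The arrays share their RNA and fall into groups of input and rounds, so these values are descriptions. Probe sets of the same gene had an r of 0.913 for Snap25, 0.674 for Vamp2, 0.422 for Vamp1 and -0.277 for Syp, and from -0.82 to 0.659 among the 6 of Syn2. For Syp the correlation of ranks had the other sign, with a Spearman's rho of 0.301. Over the 18193 genes, those with a pattern most like the mean of the 8 were Drd1, a dopamine receptor, with an r of 0.928 over 17 arrays, Mboat7 with 0.91, Sry with 0.909, and Nudt3 and Prpf19, both with 0.907. Sry lies on the Y chromosome and the methods give a female animal, and the Sry probe set was at 2.08 above the median in bulk. For Snap25 the most alike were Ywhaz, an adaptor protein of signalling, with 0.98, Ccdc185 with 0.977 and Dvl1, of Wnt signalling, with 0.965.

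Of the 8 genes by their probe sets of highest mean, 3 were called lower and 1 higher at 0.1 against 10 pg after 4 rounds, beside 4.99% and 4.97% of all genes taken in the same way. Between 1 and 0.1 pg, averaged over rounds, 2 were called lower and 0 higher, beside 1.28% and 0.22%. Other genes of the release machinery were counted likewise. Of 10 partners and regulators of the SNAREs, 1 was called lower at 0.1 against 10 pg and 0 higher, with a median of -0.27 against 0.13 over all genes. It was Snapin, which binds Snap25, with a difference of -2.88 (adjusted p = 0.0257 from limma), while Syt1, the calcium sensor of release, was at 0.12 and did not pass. Of 15 genes of the active zone and vesicle priming, 2 were called lower and 1 higher, with a median of -0.03. They were Erc2 at -3.27 and Rims1 at -3.04, both scaffolds of the active zone, and the priming factor Unc13b at 1.54. Of 15 other vesicle proteins and transporters, 3 were called lower and 2 higher, with a median of -0.48, among them Synpr, a relative of Syp, at -4.67, Slc32a1, the vesicular GABA transporter, at -2.83, and Syn3 and Sv2c at 1.93 and 1.89. Of 18 SNARE relatives of general membrane traffic, 1 was called lower and 0 higher, with a median of -0.37: Stx17, a syntaxin of autophagosomes, at -4.05. In the 10 pg group after 4 rounds Unc13b and Sv2c lay below the median of the array, at -1.38 and -1.39. At 0.1 pg after 4 rounds Snapin, Erc2, Synpr, Slc32a1 and Stx17 lay below it, at -0.99, -1.91, -1.57, -0.55 and -0.44. Averaged over the rounds, Rims1 at -1.86 (adjusted p = 0.0355 from limma) was the only gene of these lists called between 1 and 0.1 pg, with medians of -0.12, -0.04, -0.87 and -0.16 for the 4 lists in this order against 0.04 over all genes.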

How the data were processed

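The authors deposited log2 values, between 1.56 and 15.8, for 17 arrays. RMA 2.0 is the tool of the submitters' processing notes, and the methods name an upper decile statistic over probes. Per the labels, each column was matched to its array, and 0 columns were without a sample. The array medians, 5.64 to 6.01, show that the centering and scaling of the methods are not in the deposited values, so here the median of an array was subtracted and the result divided by the span of its 10th to 90th percentiles, then multiplied by the mean span of 4.63. The 64 control probe sets were left out. Of the others, 34945 carry 1 gene symbol, 932 several and 9160 none. limma 3.58.1 in R 4.3.3 fitted 7 group means over all 17 arrays (16.4 total degrees of freedom), with Benjamini-Hochberg adjustment. The fit assumes that the groups with 1 array vary like the others. Figures were drawn with matplotlib 3.10.9 in python 3.11.15.

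The members, the related and marker lists and the tests were chosen with earlier results of these data known. Text names all members, at most the 2 lowest and 2 highest called genes of each related list, the 5 genes most correlated with the mean of the members and the 3 most correlated with Snap25; Syt1 and the single marker genes were named after their values were seen. Alternatives were other scalings (none, centering on the median only, quantiles), a filter on dim probe sets, a fit of only the groups compared, a block for the replicate number, the methods' t-test, a stricter false discovery rate (0.1%), gene values as the median over probe sets, and leaving out each replicate.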

Additional observations from a re-analysis of the deposited data

Results flagged for a closer look

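The effect of 4 against 2 rounds differed between 0.1 and 1 pg for 4 of the 18 probe sets, tested as an interaction with limma (1 lower and 3 higher, beside 1.14% and 2.46% of all probe sets). The difference was 5.16 for Vamp2 at 1420834_at (adjusted p = 0.00479 from limma) and 4.05 at 1420833_at (adjusted p = 0.0248 from limma). It was 4.78 for Syp at 1448280_at (adjusted p = 0.0260 from limma), where the other Syp probe set was not called, and -2.58 for Snap25 at 1416828_at (adjusted p = 0.0430 from limma). The other Snap25 probe set, 1447763_at, had a difference of the other sign, 0.89, and was not called. Leaving out single arrays lost the call of Snap25 in 10 of 12 cases, of Syp in 7 and of Vamp2 at 1420833_at in 6, and that of Vamp2 at 1420834_at in 0. At 0.1 pg after 2 rounds, however, the levels of Vamp2 at 1420834_at were identical to 4217, 3316 and 1103 other probe sets. Those of the other called probe sets were identical to between 261 and 4494 others. The part of these shared values in the differences was not tested.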

How the results depend on the processing

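Deposited values, median centering alone and quantile normalization were checked for direction in the comparisons with an adjusted p. This covered each member gene's brightest probe set and the called member probe sets, and none turned its direction. Other named differences were not checked in this way. The 8 probe sets (of 5 genes) called at 0.1 against 10 pg after 4 rounds were the same with each scaling, with the same directions. With the deposited values Vamp2 at 1420834_at was not called between 0.1 and 1 pg (adjusted p = 0.0512 from limma), and with each of these scalings Syn2 at 1449030_at joined the calls of the difference in the effect of rounds. The count against bulk was 1 with median centering alone and 1 without the 10 pg array after 2 rounds, each time Snap25 at 1416828_at. At a false discovery rate of 0.1% the counts were 2 for 0.1 against 10 pg (272 lower and 22 higher over all probe sets), 0 for 1 against 10 pg (10 and 0), 0 for the difference in the effect of rounds (0 and 0), 2 for 0.1 against 1 pg (34 and 0) and 2 for the rounds (7 and 13). With the compared groups alone 1 against 10 pg gave 0 (Syn2 at 1460230_at, adjusted p = 0.0541 from limma), and Snap25 at 1416828_at lost the difference in the effect of rounds. All groups enter the comparison with bulk, so it has no such fit. Over all probe sets that fit gave 3674 lower and 4420 higher calls for 0.1 against 10 pg (2174 and 1818 in the main analysis), 42 and 1 for 1 against 10 pg (265 and 31), 418 and 435 for the rounds (861 and 898) and 223 and 657 for the difference in their effect (512 and 1107). Median centering alone gave 786 and 85 against bulk (462 and 32). The methods' t-test gave 4 for 0.1 against 10 pg (824 lower and 756 higher over all probe sets, and 0 members and 0 probe sets at 0.1%). Only 3 of these 4 were among the 8 called in the main analysis. At either threshold it gave 0 for 1 against 10 pg and 0 for 0.1 against 1 pg, where it called 0 of all probe sets, and 0 for the rounds, where it called 2 lower and 1 higher at 0.05, so these counts say nothing of the members. Taking each gene by the median of all its probe sets moved the median difference of the 8 genes from -0.69 to -0.20 for 1 against 10 pg, from -0.76 to -0.19 for 0.1 against 1 pg, from 0.54 to -0.18 for the rounds and from 1.09 to 0.57 for the difference in their effect; the cause was not tested.

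Leaving out each replicate gave counts from 5 to 8 for 0.1 against 10 pg, 1 for 1 against 10 pg, 2 to 4 for 0.1 against 1 pg, 3 to 4 for the rounds, 1 to 5 for the difference in their effect and 0 against bulk. The median difference of the 8 genes ran from -0.91 to 0.22, from -0.74 to -0.50, from -1.29 to -0.38, from 0.34 to 0.83, from 0.99 to 1.30 and from -0.46 to -0.28 in the same order. Without replicate 3 of 10 pg or of 0.1 pg after 4 rounds the first was -0.66 and -0.91, and without replicate 2 of 1 pg or 3 of 0.1 pg after 4 rounds the third was -1.29 and -1.21. Same-numbered arrays had correlations of their deviations from -0.199 to 0.139 over 30 pairs, so the numbers do not pair the arrays. With the replicate block the count for 1 against 10 pg was 2, as Stx1a at 1437390_x_at joined (adjusted p = 0.0481 from limma), and for 0.1 against 10 pg it was 7, without Vamp2 at 1420833_at. The background was not measured, and levels shared by many probe sets carry no order.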
